A study of Gallus gallus with 4 samples.

Results

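Near-gene HIF1α peaks are the HIF1α-DNA binding complexes that lay more than 3 kb and up to 10 kb from the nearest transcription start site (TSS) on any chromosome other than Z and W. They were chosen by the distance given for each peak in the deposited list, with no use of signal. They numbered 1455 of 8375 listed peaks (17.4%, Wilson 95% confidence interval 16.6 to 18.2), or 17.9% of the 8133 peaks outside the sex chromosomes, called autosomal peaks here.

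The peaks came from CUT&RUN, in which an antibody guides a nuclease to a DNA-bound protein in permeabilized cells and the short fragments it frees are sequenced. Primary lens cells from White leghorn chick embryos at embryonic day 10 were used, and every library came from cells given the prolyl hydroxylase inhibitor DMOG at 1 mM for 4 h. From 2 pools of 500000 cells there were 2 libraries with the HIF1α antibody and 2 with control IgG. The list was called on the HIF1α libraries pooled against the IgG libraries pooled, so each peak has 1 value, no value has a replicate error, and what is compared is the HIF1α antibody with IgG in treated cells, not treated with untreated cells.

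HIF1α is the oxygen-regulated subunit of the transcription factor HIF1, which pairs with ARNT on DNA and is best known for activating genes of glycolysis, glucose uptake, angiogenesis and mitophagy. In oxygen its prolines are hydroxylated and it is degraded, and DMOG blocks that step. The lens loses its blood supply during development, and its inner fiber cells live at low oxygen. DNA at this distance from a start site is beyond the promoter and can lie upstream of a gene, inside it or past its end. The list gives the distance without a sign, so these positions cannot be told apart here, and exons and introns were not analysed.

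Counts of near-gene peaks were higher toward the lower bound of distance than toward the upper one. How much of the genome lies at each distance was not measured, so these counts show no preference of HIF1α for a distance. The median distance was 6099 bp (95% confidence interval of the median 5959 to 6247), and the number of peaks per kb of distance was 256 at 3 to 4 kb, 246 at 4 to 5 kb, 201 at 5 to 6 kb, 227 at 6 to 7 kb, 191 at 7 to 8 kb, 173 at 8 to 9 kb and 161 at 9 to 10 kb. For comparison, 514 peaks lay within 1 kb of a TSS, 244 at 2 to 3 kb, and 145 at 10 to 11 kb. The count at 3 to 4 kb was thus close to that of the kb before it, and no step marked either bound. The median pileup was 9 HIF1α fragments in each of these 7 intervals. The lowest pileup in the whole list was 7, so these medians lie close to the floor of the list and resolve little.

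**Figure D1:**
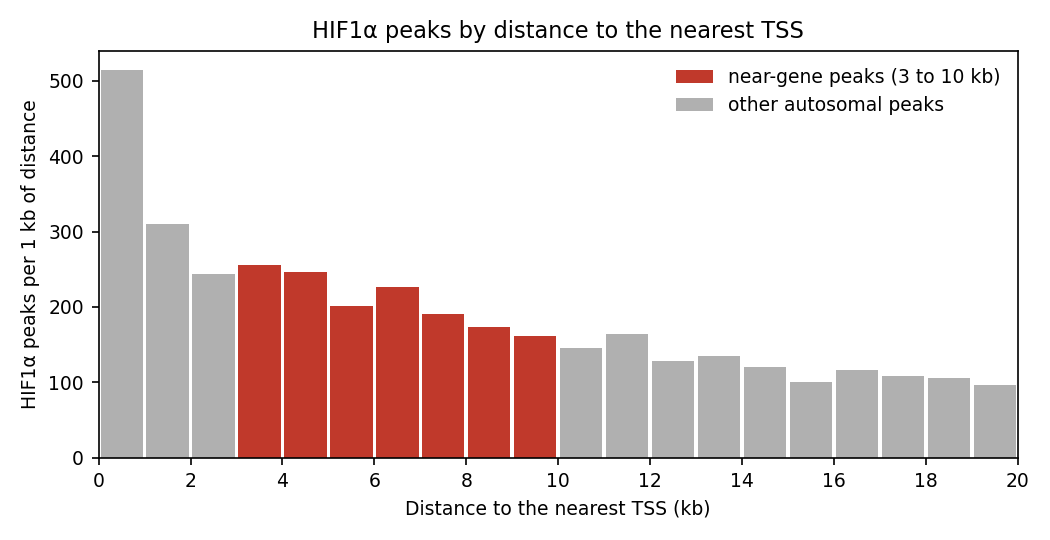
Number of autosomal HIF1α peaks (vertical axis) in each kb of distance to the nearest TSS (horizontal axis, kb), with near-gene peaks in red and other autosomal peaks in grey. Counts were 256 at 3 to 4 kb and 161 at 9 to 10 kb, beside 514 within 1 kb.

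Peaks ran on across both bounds without a gap. Just inside the lower bound were peaks at 3001 bp from LMCD1 (pileup 8), at 3006 bp from ENSGALG00000053332 (pileup 9) and at 3021 bp from MTFR2 (pileup 7). Just outside it were peaks at 2998 bp from FMN1 (pileup 7), at 2989 bp from USP33 (pileup 11) and at 2985 bp from SLC19A2 (pileup 7). At the upper bound the last peaks inside were at 9972 bp from ENSGALG00000038207 (pileup 61, over a background of 37.1 fragments), at 9976 bp from RHEB (pileup 10) and at 10000 bp from ENSGALG00000054753 (pileup 19). The first outside were at 10002 bp from SYT9 (pileup 8), at 10005 bp from ENSGALG00000020788 (pileup 11) and at 10010 bp from TAF1B (pileup 10).

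Most near-gene peaks were small, as were most of all autosomal peaks. The pileup counts HIF1α fragments at a peak's summit. It was 7 to 9 at 887 near-gene peaks (61.0%, 95% confidence interval 58.4 to 63.4), beside 58.9% of all autosomal peaks, and 10 to 19 at 488. Another 56 peaks had 20 to 99 fragments, and 24 (1.65%) had 100 or more, beside 2.46% of the whole list. The median fold enrichment over the background was 3.96 (95% confidence interval 3.92 to 4.14), beside 3.92 for all autosomal peaks. A fold enrichment of 10 was reached by 6 near-gene peaks (0.412%), beside 0.394% of the whole list. Lengths had a median of 136 bp (95% confidence interval 134 to 139), beside 137 bp for all autosomal peaks, and ranged between 105 and 1603 bp.

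The tallest near-gene peaks stood on a high background. This is the background that the fold enrichment implies, not a count of IgG fragments at the summit. The background at each summit, computed from the pileup and the fold enrichment, was at its lowest value of 1.30 fragments at 730 near-gene peaks (50.2%), beside 49.5% of all autosomal peaks. It was more than 3 times that value, called high IgG background here, at 76 peaks (5.22%, 95% confidence interval 4.19 to 6.49), beside 7.94% of the whole list. Of the 56 peaks with 20 to 99 fragments, 47 had high IgG background, as did 23 of the 24 with 100 or more. Tall peaks of the other distance classes were not split by background, so this cannot be called particular to near-gene peaks. The 76 peaks had a median pileup of 55, a median length of 206.5 bp and a median fold enrichment of 2.34, whereas the other 1379 had medians of 9 fragments, 134 bp and 4.09. Pileup and background both enter the calling of a peak, so these medians are a description with no test.

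**Figure D2:**
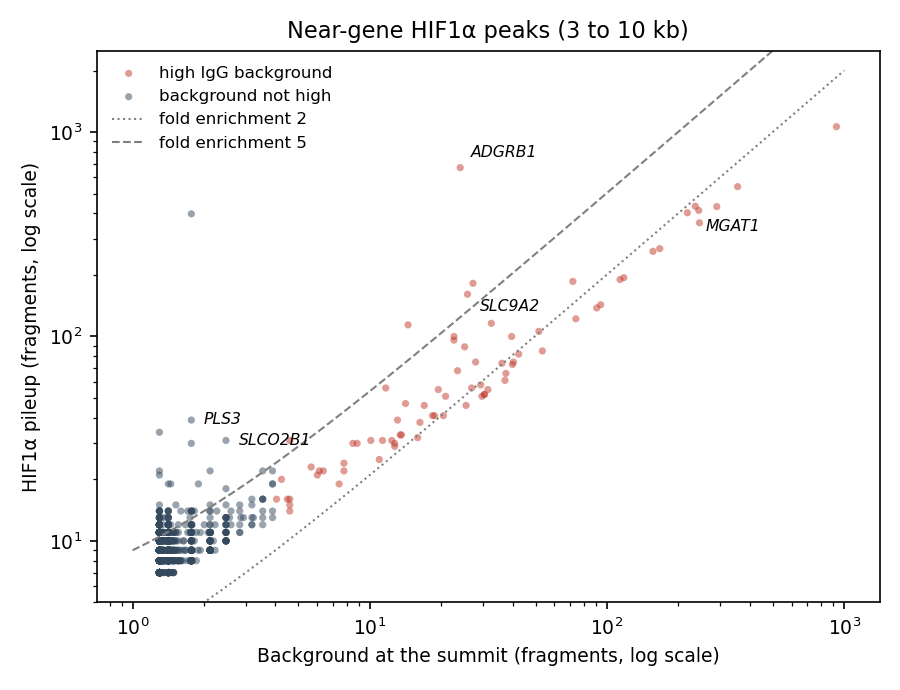
HIF1α pileup (vertical axis, fragments, log scale) against the background at the summit (horizontal axis, fragments, log scale) for the near-gene peaks, red with high IgG background and dark blue without, with lines at fold enrichments of 2 and 5. Red marks 23 of the 24 points at 100 fragments or higher, and most of the red points lie near the line of a fold enrichment of 2.

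Among the strongest near-gene peaks, the one nearest ADGRB1, an adhesion G protein-coupled receptor first known as an inhibitor of angiogenesis in the brain, had 670 fragments (Poisson 95% interval 620 to 723) and a fold enrichment of 26.8. It lay 3925 bp away on chromosome 2 from 147551998 to 147552353, and its background of 24.0 fragments counts as high. PLS3, which encodes an actin-bundling plastin, had a peak of 39 fragments (95% interval 27.7 to 53.3) at a fold enrichment of 14.4 on chromosome 4 from 2943799 to 2943909. This peak is 111 bp long and its background was 1.77 fragments. A pair of peaks on chromosome 31 had no gene symbol. That at ENSGALG00000049114, from 3036504 to 3036652, had 34 fragments and a fold enrichment of 15.2, and that at ENSGALG00000050090, from 119849 to 119961, had 30 fragments and a fold enrichment of 11.2.

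Further strong peaks without high IgG background were at genes of varied function. SLCO2B1, an organic anion transporter, had 31 fragments (95% interval 21.1 to 44.0) and a fold enrichment of 9.21 at 4401 bp. MRPL14, a protein of the mitochondrial ribosome, had 22 fragments and a fold enrichment of 10.0 at 8972 bp, and a second peak of 12 fragments at 7838 bp. BTBD2, a BTB domain protein, had 21 fragments and a fold enrichment of 9.58 at 4370 bp on chromosome 28, and a second peak of 10 fragments at 5528 bp.

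Other peaks with a very low q value had high IgG background. SLC9A2, a sodium-proton exchanger, had 161 fragments over a background of 25.8 (fold enrichment 6.04) at 4059 bp. MEOX2, a mesodermal transcription factor, had 100 fragments over 22.6 (fold enrichment 4.27) at 8357 bp. The highest of 4 near-gene peaks at MGAT1, a glycosyltransferase of N-glycan processing, had 434 fragments over 235.5 and a fold enrichment of 1.84. ENSGALG00000016127 had 182 over 27.2, ENSGALG00000051576 had 114 over 14.5, and ENSGALG00000007728 had 96 over 22.6. The longest peaks were of this kind too. One of 1603 bp on chromosome 28 from 5093197 to 5094799, nearest ENSGALG00000053954, had 106 fragments over 51.6, and one of 1452 bp on chromosome 25 from 489826 to 491277, nearest ENSGALG00000050454, had 414 over 243.7. Whether the genome assembly or repeated sequence plays a part in these peaks was not tested.

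Near-gene peaks were then compared with the classes on either side, the 1068 autosomal peaks within 3 kb and the 4227 at 10 to 100 kb, by 5 measures. The distance rule uses none of them, but the share on microchromosomes is tied to gene spacing and so to distance. Two-sided Fisher's exact tests were adjusted over the 10 comparisons by the Benjamini-Hochberg method. The tests take each peak as independent, and since the libraries were pooled they say nothing of the spread between replicates. Against peaks within 3 kb, near-gene peaks less often reached a −log10 q of 3, were less often over 200 bp, less often on microchromosomes and less often close to another peak. Against peaks at 10 to 100 kb, they were more often on microchromosomes and less often on high IgG background.

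A −log10 q of at least 3 was reached by 376 near-gene peaks (25.8%, 95% confidence interval 23.7 to 28.2), beside 26.5% of the whole list. The share was 29.9% of peaks within 3 kb (odds ratio 0.818, 95% confidence interval 0.684 to 0.980, adjusted p = 0.0452, Fisher's exact test). It was 25.7% at 10 to 100 kb, and the difference did not pass the threshold (odds ratio 1.01, 95% confidence interval 0.875 to 1.15, adjusted p = 1, Fisher's exact test). Closest to the TSS, within 1 kb, the share was 32.3%, and at 1 to 3 kb it was 27.6%. With a single peak kept per nearest transcript, the difference from peaks within 3 kb no longer passed the threshold (odds ratio 0.822, adjusted p = 0.0577, Fisher's exact test), nor did it within chromosome groups or with a lower bound of 5 kb. Keeping a single peak also turned the comparison with 10 to 100 kb, where the share was then 26.4% of near-gene peaks against 30.7% (odds ratio 0.810, adjusted p = 0.00915, Fisher's exact test). The peak kept was the one with the highest −log10 q. That choice raises the share most where transcripts have several peaks, so the turn cannot be read as a difference between the classes.

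The background was high at 5.22% of near-gene peaks, against 5.24% within 3 kb (odds ratio 0.996, 95% confidence interval 0.689 to 1.45, adjusted p = 1, Fisher's exact test) and 7.93% at 10 to 100 kb (odds ratio 0.640, 95% confidence interval 0.489 to 0.830, adjusted p = 0.00173). With a single peak per transcript, 4.04% of near-gene peaks stood against 5.15% at 10 to 100 kb, which did not pass (odds ratio 0.775, adjusted p = 0.181, Fisher's exact test). Among peaks with a fold enrichment of at least 3, few of which have a high background, the direction turned without passing the threshold (1.50% against 1.37%, odds ratio 1.10). Peaks over 200 bp made up 14.2% of near-gene peaks, against 18.3% within 3 kb (odds ratio 0.743, 95% confidence interval 0.596 to 0.925, adjusted p = 0.0139, Fisher's exact test) and 14.7% at 10 to 100 kb (odds ratio 0.963, 95% confidence interval 0.808 to 1.14, adjusted p = 0.873). Within 1 kb the share over 200 bp was 21.8%. At 1 to 3 kb it was 15.0%, close to that of near-gene peaks.

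A second peak within 1 kb accompanied 68 near-gene peaks (4.67%), against 7.40% of peaks within 3 kb (odds ratio 0.614, 95% confidence interval 0.433 to 0.869, adjusted p = 0.0111, Fisher's exact test). The latter share was 8.17% for peaks within 1 kb of a TSS and 6.68% for those at 1 to 3 kb. The share at 10 to 100 kb was 5.84%, and the difference did not pass the threshold (odds ratio 0.790, 95% confidence interval 0.591 to 1.04, adjusted p = 0.138, Fisher's exact test). Within chromosome groups it did (Mantel-Haenszel odds ratio 0.666), and without high IgG background the direction turned (odds ratio 1.20). The call against peaks within 3 kb was lost with a lower bound of 5 kb (odds ratio 0.664). Close neighbours and high IgG background went together among near-gene peaks, since 32.9% of the 76 peaks with high IgG background had a neighbour, against 3.12% of the others.

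**Figure D3:**
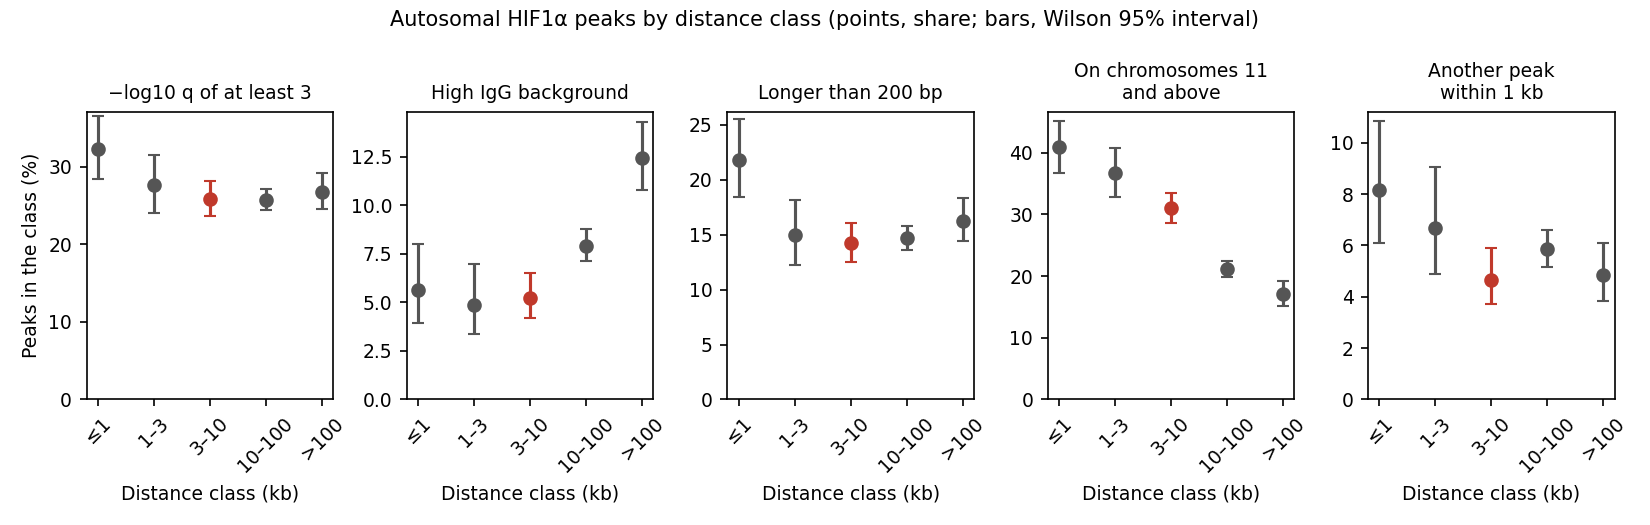
Share of autosomal peaks (vertical axes, %, each starting at 0) in each class of distance to the nearest TSS (horizontal axes, kb) for the 5 measures, with near-gene peaks in red and Wilson 95% intervals as bars. The share on chromosomes 11 and above is 40.9% within 1 kb, 31.0% at 3 to 10 kb and 17.1% over 100 kb, whereas high IgG background is 5.22% at 3 to 10 kb and 12.4% over 100 kb.

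The genome of the chicken has a few large chromosomes and many small, gene-dense microchromosomes, here taken as chromosomes 11 and above. They held 451 near-gene peaks (31.0%, 95% confidence interval 28.7 to 33.4), against 38.7% of the peaks within 3 kb (odds ratio 0.713, 95% confidence interval 0.601 to 0.844, adjusted p = 3.27e-04, Fisher's exact test) and 21.1% of those at 10 to 100 kb (odds ratio 1.68, 95% confidence interval 1.47 to 1.92, adjusted p = 6.34e-13). The distance to a TSS depends on the spacing of genes, which differs between these chromosomes and was not measured here. These comparisons are therefore not independent of the distance classes, and the part of gene spacing in them was not tested. Near-gene peaks numbered 2.25 per Mb on microchromosomes (Poisson 95% interval 2.05 to 2.47), 1.59 on chromosomes 6 to 10 (1.39 to 1.81) and 1.26 on chromosomes 1 to 5 (1.18 to 1.36), with chromosome length taken as the end of the last listed peak.

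Chromosomes differed in how many of their peaks were near-gene. The share was 41.3% on chromosome 28 (26 of 63 peaks, 95% confidence interval 30.0 to 53.6), 34.0% on chromosome 26 and 33.3% on chromosome 24, against 14.9% on chromosome 1, which held the most near-gene peaks at 236. The lowest share was 14.4% on chromosome 12. High IgG background was uneven too. It marked 12 of the 20 near-gene peaks of chromosome 25, whose median pileup was 43.5, and 5 of 26 on chromosome 28, but none of the 55 on chromosome 6 or the 42 on chromosome 7. The share over all peaks of each chromosome was not computed. Whether this unevenness is particular to near-gene peaks therefore cannot be told here.

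The share with high IgG background also had different values in the 3 chromosome groups. On chromosomes 11 and above it was 9.09% of near-gene peaks, against 5.57% within 3 kb and 20.9% at 10 to 100 kb. On chromosomes 1 to 5 the shares were 4.29% of near-gene peaks, against 5.80% within 3 kb and 4.76% at 10 to 100 kb. On chromosomes 6 to 10 they were 0.851%, against 2.91% within 3 kb and 3.25% at 10 to 100 kb. Whether these contrasts differ between the chromosome groups was not tested.

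The 1455 near-gene peaks had 1362 nearest transcripts and 1325 entries of gene symbols. For 970 of the transcripts (71.2%) no peak of another distance class had the same nearest transcript, whereas 83 (6.09%) also had a peak within 3 kb and 300 (22.0%) one at 10 to 100 kb. Such shares were not computed for the other distance classes, so these cannot be called particular to near-gene peaks. Several genes were given for 137 peaks, so that a single nearest gene cannot be named there, and 315 peaks (21.6%) had an identifier only. Of 1052 symbols, 1001 matched protein-coding genes in the RefSeq table, which is 6.97% of its 14357 such genes with a symbol.

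There were 74 transcripts with 2 or more near-gene peaks (5.43% of the 1362), of which 12 had 3 or more. The same share was not computed for the other distance classes. RETREG1, an endoplasmic reticulum protein and receptor for its autophagy, was nearest to 4 peaks in all and each was near-gene, at 3042, 4700, 7279 and 8593 bp, with pileups of 10, 10, 9 and 8. EMP1, an epithelial membrane protein, had its 3 peaks at 5198, 5409 and 5712 bp with 9, 8 and 8 fragments. PLAGL1, a zinc finger transcription factor, had 16 fragments at 6181 bp, 8 at 7504 bp and 9 at 8151 bp. CCDC91, which takes part in traffic from the Golgi, had 10 fragments at 3625 bp, 8 at 9911 bp and 7 at 8721 bp. The distances have no sign, and the peaks of a gene were not all close together. Those of EMP1 ran from 48321441 to 48332871 on chromosome 1, and those of RETREG1 from 75659992 to 75676118 on chromosome 2. The CCDC91 peak at 8721 bp had another nearest transcript than the other CCDC91 peaks. The peaks of these genes had fold enrichments between 3.25 and 4.56 and no high IgG background. No peak of RETREG1, EMP1 or CCDC91 reached a −log10 q of 3, and 1 peak of PLAGL1 did.

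Other genes with several near-gene peaks differed from these. ENSGALG00000054761 on chromosome 25 had 8 near-gene peaks between 3845 and 8234 bp, all with high IgG background, pileups of 41 to 66 and fold enrichments of 1.69 to 2.62. MGAT1 had 4 of its 28 peaks in the near-gene class, with pileups of 194 to 434 and fold enrichments of 1.46 to 1.84. The entry ZNF638;ENSGALG00000016105 had 3 such peaks of 33, 51 and 75 fragments, and RF00002 on chromosome 16 had 3 of 73, 82 and 186. All of these had high IgG background. ENSGALG00000046912 and ENSGALG00000053954 likewise had 3 each. RF02271, an identifier of an RNA family that stands for many places, had 9 near-gene peaks on 6 chromosomes with 7 to 14 fragments and no high IgG background. RF00026 had 3 on 2 chromosomes with 7 to 11 fragments. At ENSGALG00000027982, ENSGALG00000048828, ENSGALG00000049324 and ENSGALG00000054753, each with 3 peaks, pileups ranged from 8 to 19.

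The nearest genes were next set against a list of 68 genes that are known to respond to hypoxia or, as HIF1AN does, regulate HIF1α. Of these, 62 were present in the RefSeq table. A near-gene peak was found at 10 of the 62 (16.1%, 95% confidence interval 9.0 to 27.2), beside 6.97% of all protein-coding genes with a symbol. Peaks at list genes were not particular to this class. Of the list genes, 16 had a peak within 3 kb, 12 had one at 10 to 100 kb, and 30 had a peak of any class. No share over all genes is given for those classes, so whether these counts are high or ordinary cannot be told here. The 10 genes with a near-gene peak had 11 such peaks, of which 8 (72.7%) reached a −log10 q of 3, beside 26.5% of the whole list. None had high IgG background, and their pileups ranged from 9 to 22 with a median of 11, above the near-gene median of 9. For 4 of the 10 genes there was also a peak within 3 kb, and for 3 genes the near-gene peak was the only one. Counted by nearest transcript and not by gene, 6.09% of all those with a near-gene peak also had one within 3 kb. The list was compiled with earlier results of these data known, and no test was made of it.

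Glycolysis and its transporters supplied 5 of these genes. PFKFB3, which makes the main activator of phosphofructokinase, had 14 fragments (95% interval 7.65 to 23.5) at 3189 bp and a fold enrichment of 5.42. It was nearest to 4 further peaks, with 16 fragments at 381 bp, 17 at 1002 bp, 16 at 22629 bp and 9 at 55651 bp, so that HIF1α signal was found on both sides of the near-gene class. SLC16A3, a monocarboxylate transporter that exports lactate, had the tallest near-gene peak of the list, 22 fragments (13.8 to 33.3) over a background of 3.54. This peak lay at 3159 bp on chromosome 18 from 4872382 to 4872856, and SLC16A3 also had a peak of 9 fragments at 1276 bp. The peak of HK2, the hypoxia-induced hexokinase, was shared with TIA1, an RNA-binding protein of stress granules, and had 15 fragments over 2.12 at 4888 bp, with no other peak. GAPDH, the glycolytic dehydrogenase, had 9 fragments (4.12 to 17.1) at 3628 bp and no other peak. SLC2A14, a glucose transporter that the gene table gives for SLC2A3, had 9 fragments at 5782 bp and a further peak of 18 at 14866 bp.

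The other 5 act outside glycolysis. DDIT4, a stress-induced inhibitor of mTOR signalling, shared with ANAPC16 a peak of 14 fragments (7.65 to 23.5) at 3118 bp. The fold enrichment of this peak, 6.21, was the highest among the near-gene peaks of the list. The pair also had peaks of 16 fragments at 2468 bp and 9 at 2115 bp. KDM4B, an oxygen-dependent histone demethylase, had 11 fragments at 5545 bp and 12 at 7013 bp on chromosome 28, both at the lowest background, on either side of a peak of 28 fragments over 7.78 at 102 bp that had high IgG background. VEGFA, the vascular endothelial growth factor, had 10 fragments (4.80 to 18.4) at 4963 bp and further peaks of 9 at 32018 bp and 7 at 94306 bp. ANGPTL4, a secreted inhibitor of lipoprotein lipase, had 10 fragments at 3646 bp and no other peak. HIF1AN, the asparaginyl hydroxylase that lowers HIF1α activity in oxygen, had 9 fragments at 4798 bp and 7 at 64107 bp.

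The gene of HIF1α itself was also among the nearest genes. HIF1A, which the list did not hold, had a near-gene peak of 11 fragments (5.49 to 19.7) at 4232 bp on chromosome 5 from 54187693 to 54187866, with a fold enrichment of 4.97. The intervals of the near-gene pileups of these genes and HIF1A overlap one another, so their order within the list is not resolved.

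**Figure D4:**
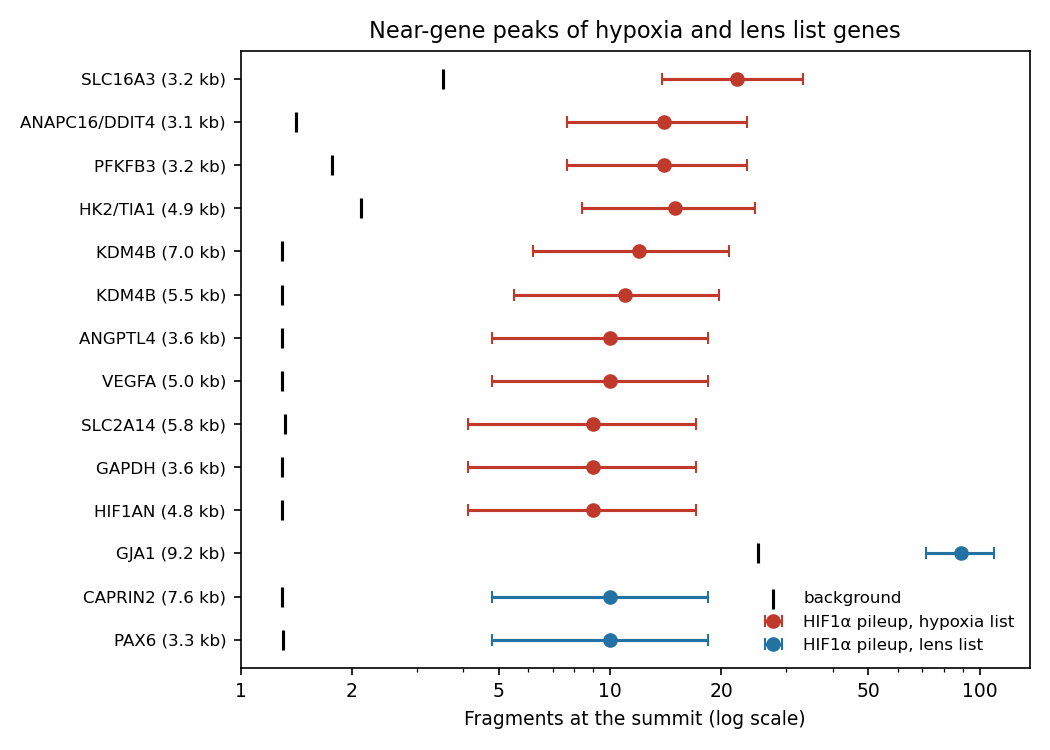
HIF1α pileup (points, with Poisson 95% intervals) and background (black marks) at the summit of the near-gene peaks nearest to hypoxia list genes (red) and 3 lens list genes (blue), in fragments on a log scale, with the distance to the TSS beside each name. Hypoxia list peaks have 9 to 22 fragments and, apart from SLC16A3, a background of at most 2.12, whereas GJA1 has 89 over 25.1.

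Genes known for roles in the lens had near-gene peaks at a share close to that of all genes. Near-gene peaks were found at 4 of the 51 lens list genes that the RefSeq table held (7.84%, 95% confidence interval 3.09 to 18.5), beside 6.97% of all genes. None of these 4 had a peak within 3 kb, beside 6.09% of all transcripts with a near-gene peak that did. The latter share is by transcript and not by gene, and 4 genes are too few to compare with it. PAX6, the transcription factor at the top of eye development, had 10 fragments (4.80 to 18.4) at 3340 bp and peaks of 10 each at 64331 and 74403 bp. CAPRIN2, an RNA-binding protein of lens fiber cells, had 10 fragments at 7588 bp and no other peak. GJA1, the gap junction protein of lens epithelium, had 89 fragments (71.5 to 110) at 9167 bp over a background of 25.1, with a fold enrichment of 3.45 and high IgG background. Its further peaks had 8 fragments at 18553 bp, 7 at 36541 bp, 13 at 68391 bp and 9 at 155714 bp, without high IgG background.

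Near-gene peaks were spread over gene families, each defined by symbol. The share of a family's genes with a near-gene peak lay between 6.28% for extracellular matrix, proteases and integrins and 10.9% for zinc finger and BTB proteins, beside 6.97% of all protein-coding genes with a symbol. Only the family of extracellular matrix, proteases and integrins lay below that share over all genes, and no family was tested against it. The share of a family's own peaks that were near-gene varied, and no difference between families was tested. Of the peaks nearest to cadherins, adhesion and guidance molecules, 9.28% (22 of 237) were near-gene. Of those nearest to homeobox, SOX, FOX and other developmental transcription factors, 11.3% (24 of 213) were. For solute carriers the share was 23.0% (28 of 122) and for ribosomal proteins 27.3% (12 of 44), beside 17.9% of all autosomal peaks.

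**Figure D5:**
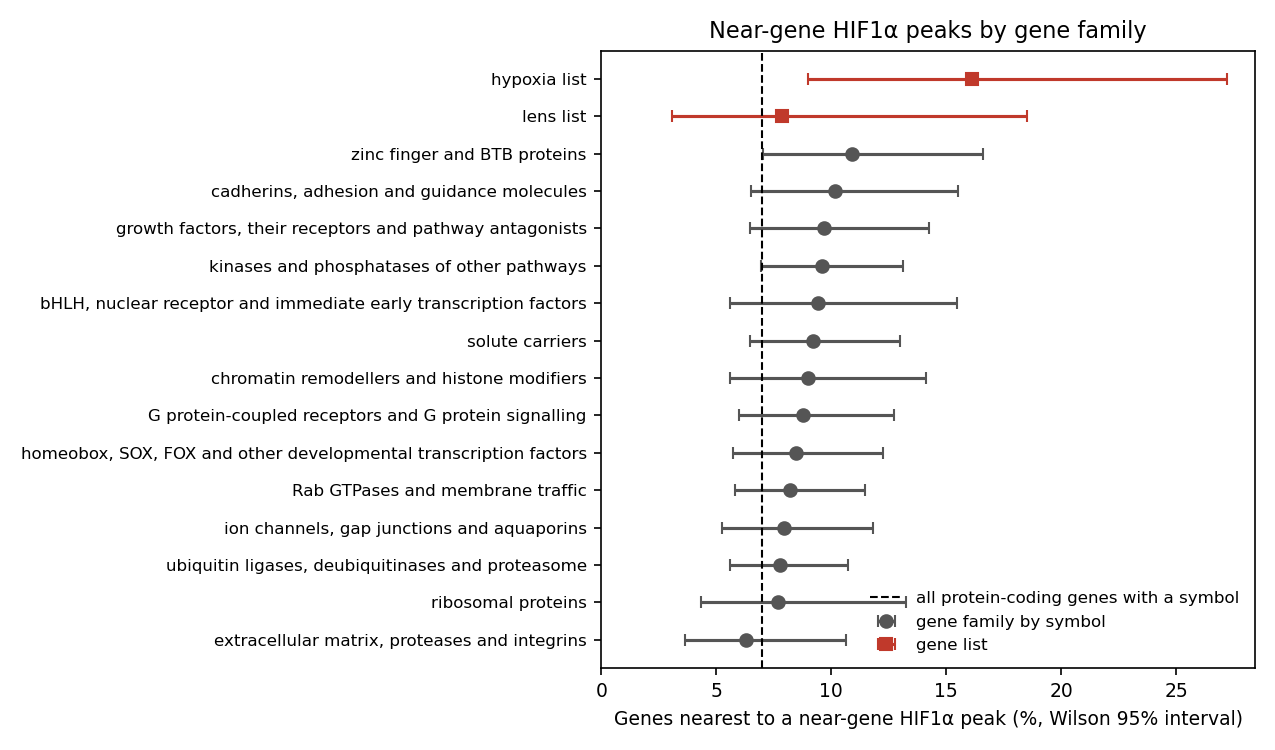
Share of genes nearest to a near-gene HIF1α peak (horizontal axis, %, with Wilson 95% intervals) for 14 gene families defined by symbol (grey) and the hypoxia and lens lists (red squares), beside the share of 6.97% over all protein-coding genes with a symbol (dashed line). The hypoxia list is at 16.1% and the families lie between 6.28% and 10.9%. Other distance classes are not shown. A peak within 3 kb was found at 16 hypoxia list genes, with no share over all genes given beside it.

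The families are set beside a common background in what follows, since 25.8% of all near-gene peaks and 26.5% of the whole list had a −log10 q of at least 3. The symbols taken as homeobox, SOX, FOX and other developmental factors, which did not include MEOX2 (described above, with 100 fragments and high IgG background), had 24 near-gene peaks of 7 to 14 fragments, and 4 of the 24 (16.7%) reached a −log10 q of 3, beside 25.8%. SOX21, a SOX factor of the nervous system, had the strongest with 14 fragments (7.65 to 23.5) at 4299 bp and a fold enrichment of 6.52. It was followed by TCF12, a basic helix-loop-helix (bHLH) factor counted here by its symbol, with 11 at 9397 bp. Among the symbols taken as bHLH, nuclear receptor and immediate early factors, 5 of 15 peaks (33.3%, beside 25.8%) reached a −log10 q of 3. These symbols did not hold TCF12 and also took in FLI1, an ETS factor of blood and endothelium, with 12 fragments (fold enrichment 5.66). NR3C1, the glucocorticoid receptor, had 11 (fold enrichment 5.22). Zinc finger and BTB genes had 21 peaks, 4 of them with high IgG background. Outside these, ZBTB40, ZNF644 and ZBTB18 had 10 fragments each.

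Among signalling genes, growth factors, their receptors and antagonists had 26 near-gene peaks, 9 of them (34.6%, beside 25.8% of all near-gene peaks) at a −log10 q of 3 or more. SMAD3, which carries TGFβ signals to the nucleus, had 15 fragments at 9740 bp, and GDF6 and NOG, a ligand and an antagonist of the BMP pathway, had 11 each at 6980 and 6919 bp. Of 28 peaks at G protein-coupled receptors and their signalling genes, 10 (35.7%, beside 25.8%) reached that value, and pileups ran from 7 to the 670 of ADGRB1. Beside ADGRB1 these included GPR85 and ADGRG6 with 13 fragments each and GPR160 with 12. Kinases and phosphatases had 6 of 39 (15.4%, beside 25.8%), with PPP1R10, a nuclear regulator of a protein phosphatase, at 12 fragments.

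Genes of transport, adhesion and the cell surface came next. Solute carriers had 28 near-gene peaks, of which 8 (28.6%, close to the 25.8% of all near-gene peaks) had a −log10 q of at least 3, and cadherins, adhesion and guidance molecules had 22, of which 9 (40.9%, beside 25.8%) did. PCDH17, a protocadherin, and CDH4, a classical cadherin, had 12 fragments each (fold enrichments 5.66 and 5.38), and UNC5D, a netrin receptor, had 11 at 8267 bp. In the channel family, CACNB4 and CACNA2D1, auxiliary subunits of calcium channels, had 13 and 12 fragments at 4972 and 3058 bp. Extracellular matrix, protease and integrin genes had 14 peaks of 7 to 12 fragments with a median distance of 8397 bp, among them SPON1, a secreted adhesion protein, with 12 fragments, and ADAMTS8 and ITGB1, the shared β subunit of many integrins, with 11 each.

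Housekeeping and intracellular families followed. Ubiquitin ligases, deubiquitinases and proteasome genes had 34 peaks, 12 of them (35.3%, beside 25.8% of all near-gene peaks) at a −log10 q of 3 or more, and beside BTBD2 the highest were RNF6, a ubiquitin ligase, and UBE2N, a ubiquitin-conjugating enzyme, with 14 fragments each. In Rab GTPases and membrane traffic, 7 of 32 peaks (21.9%, beside 25.8%) reached it, with RAB11A, a GTPase of recycling endosomes, and RAB38, a GTPase of lysosome-related organelles, at 14 each and MYO19, a myosin of mitochondria, at 13. Chromatin genes had 7 of 19 (36.8%, beside 25.8%), including both KDM4B peaks and TOX, a nuclear HMG-box protein, with 12 fragments at 4014 bp. Ribosomal proteins had 5 of 12 (41.7%, beside 25.8%), MRPL14 and MRPS6 of the mitochondrial ribosome among them.

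At microRNA genes, 21 of 49 peaks (42.9%) reached a −log10 q of 3, beside 25.8% of near-gene peaks and 26.5% of the whole list. Of those given for a microRNA alone and without high IgG background, the one with the highest −log10 q was gga-mir-12207, with 22 fragments (13.8 to 33.3) over 2.12 at 7030 bp on chromosome 1 from 414341 to 414743. A peak of 512 bp on chromosome 21 from 4619062 to 4619573, given for gga-mir-6626 and 3 identifiers, had 19 fragments and a fold enrichment of 8.28, and gga-mir-128-1 had 15 fragments at 9015 bp. RNA family identifiers had 9 of 37 (24.3%, beside 25.8%). An identifier was among the entries of 351 near-gene peaks (24.1%), beside 22.7% of all autosomal peaks, and some of the 351 also gave a symbol. Among the 351 were 43 of the 76 near-gene peaks with high IgG background, and 29.1% had a −log10 q of at least 3. No family share was tested, and families overlap where a peak was given several genes.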

How the data were processed

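HIF1α and IgG CUT&RUN libraries (2 each) of DMOG-treated chick lens cells were grouped by their titles. The authors trimmed reads with Trimmomatic, aligned them to galGal6 with Bowtie2, kept short fragments and removed mitochondrial and low-complexity reads with SAMtools, and called peaks with MACS2 on pooled HIF1α against pooled IgG libraries; tool versions are not given in the sources used here. All columns were pooled ones, 0 per-sample columns were left unmatched, and library depths are unknown.

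The authors deposited 1 list with the pileup (signal in fragments at the summit), the fold enrichment (a ratio of pileup plus 1 to background plus 1), the −log10 of the p-value and of the q-value (highest q 0.0496), and the start, end and length in bp. The distance to the nearest TSS, in bp, with its transcript and symbol, is also deposited, and each value describes 1 pooled peak. The deposited −log10 p was recomputed within 0.00165 at 8369 peaks from pileup and background. The listed pileup and the background implied by the fold enrichment are thus the values behind the p-value. Whether either was scaled before that step is not shown by this match, and the Poisson intervals take the pileup as a count. With no replicate values, precision is limited by fragments counted, and intervals cover counting error only.

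Shares have Wilson and pileups exact Poisson 95% intervals. Fisher's exact tests (two-sided, conditional odds ratio) were run in Python 3.11.15 with SciPy 1.17.1, pandas 2.3.3 and NumPy 2.4.6, tested on simulated data, and adjusted over 10 comparisons. Alternatives were merging of peaks within 1 kb, a −log10 q of at least 2, a fold enrichment of at least 3, 1 peak per transcript, leaving out high IgG background, Mantel-Haenszel estimates within chromosome groups, and a lower bound of 5 kb. Merging, and taking 1 peak per transcript in each distance class, kept the peak with the highest −log10 q. Gene names came from the RefSeq table of GRCg7b, without its coordinates.

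The members and lists were chosen with earlier results of these data known. Family patterns that caught wrong symbols were corrected, and older symbols were allowed in list matching, after values were seen. Peaks named were the 10 top values of −log10 q, the 5 longest, the 5 top fold enrichments, every list gene, the 3 highest of each family without high IgG background, symbols with 3 or more peaks, and those beside the bounds. Not every peak or family that these rules pick is reported here. Sequence and motifs were not analysed.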

Additional observations from a re-analysis of the deposited data

How the results depend on the processing

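Directions and calls of the 10 comparisons mostly held: over all alternatives and results, 57 values kept direction and call or stayed within tolerance, 12 odds ratios changed direction, of which 1 also gained and 1 also lost its call, another 5 lost and 2 gained their call in the same direction, and 4 descriptive values moved. With a −log10 q of at least 2, 808 near-gene peaks remained (median pileup 10, median length 140.5 bp), the odds ratio for high IgG background against peaks within 3 kb was 1.14, and that for a neighbour against 10 to 100 kb passed the threshold at 0.645. With a fold enrichment of at least 3, the odds ratios against 10 to 100 kb were 1.10 for high IgG background, 1.09 for length and 1.16 for a neighbour. Merging peaks within 1 kb gave 1.02 for length against 10 to 100 kb. With 1 peak per transcript, −log10 q gave 0.822 against peaks within 3 kb and 0.810 against 10 to 100 kb, high IgG background 0.775 and length 1.01 against 10 to 100 kb. The 2 values for −log10 q depend in part on the rule that kept the peak with the highest −log10 q. Without high IgG background, length gave 1.08 and a neighbour 1.20 against 10 to 100 kb. Within chromosome groups, −log10 q gave 0.828 against peaks within 3 kb and 0.984 against 10 to 100 kb, high IgG background 1.04 against peaks within 3 kb, and a neighbour 0.666 against 10 to 100 kb. With a lower bound of 5 kb, 953 peaks remained, and against peaks within 3 kb −log10 q gave 0.844, high IgG background 1.04 and a neighbour 0.664. The cause was not tested. The comparisons on microchromosomes and of length against peaks within 3 kb kept their direction and call under every alternative run. Those on microchromosomes are tied to gene spacing, which was not measured. That of length did not test peaks at 1 to 3 kb apart from those within 1 kb.

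No paired analysis was possible because peaks have 1 pooled value each, and no replicate was left out for the same reason. At a pileup of 7 to 9, as at 61.0% of near-gene peaks, the depth does not resolve differences between single peaks.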
